A study of Mus musculus with 2 samples.

Results

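Strong accessible peaks inside gene bodies are open regions that lie within a protein-coding gene, away from both of its ends. They were taken from the WT peak list by 4 conditions. The summit pileup, the height of stacked fragments at the peak's highest point, was 99 or more on chromosomes 1 to 19. The peak overlapped the span of a RefSeq protein-coding gene (mm10) and lay more than 2500 bp from every protein-coding gene end. It also overlapped a Tle4cKO peak by at least 1 bp. Of 128737 WT peaks, 5678 (4.41%) met the rule, and they fell in 2747 host genes.

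ATAC-seq marks open DNA with adapters that a Tn5 transposase inserts, and it was run on colonic macrophages gated as CD64-positive, Ly6C-low and Siglec-F-negative. The Tle4cKO library came from Tle4f/f Lyz2-Cre mice, in which Cre made from the myeloid gene Lyz2 deletes the floxed Tle4, and the WT library came from Lyz2-Cre mice, so that both genotypes carry the Cre allele. All mice were male C57BL/6 aged 18.9 weeks, and each library pooled the cells of 2 mice of a genotype. With 1 library per genotype, no value has a replicate check, and the genotypes were compared without a test or an SD. The Tle4cKO list held 128129 peaks, called separately from the WT list, and the sources used here give neither read totals nor any scaling between the lists. In a bulk library, fewer cells with an open region and a less open region in each cell cannot be told apart.

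Tle4 is a Groucho-type corepressor that binds no DNA itself and is brought to genes by transcription factors such as Runx, Hes and Tcf/Lef proteins, where it recruits histone deacetylases. Open regions inside genes include enhancers in introns, bound in macrophages by PU.1 (Spi1), C/EBP, AP-1 and Runx factors, and internal start sites of shorter transcripts. The deposited data hold no factor binding, so the type of a region is not known from them, apart from the start sites listed by RefSeq.

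The label of gene-body peaks was checked against 32851 starts listed by RefSeq (GRCm38.p6, the assembly of mm10), since the gene spans also take in predicted transcripts. The starts of 1 chromosome were not used here, which set aside 195 of the 5678 peaks. Of the other 5483, 662 (12.1%) held a listed start of some gene, 576 of them a start of the host gene and 86 only a start of another gene. In 277 of the 576 the start was the most upstream one listed for the host, and in 299 it was a downstream, alternative start. The remaining 4821 held no listed start.

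The windows below show starts that lie in strong gene-body peaks, for the host genes of 3 of the 10 peaks with the highest WT pileup and for Hdac4, which encodes a class IIa histone deacetylase. Each runs 5′ to 3′ on the gene's strand over 300 bases, 250 before the start and 50 from it, per RefSeq (GRCm38.p6). Capitals mark matches to GGGCGG (GC box, the letters bound by Sp1-type factors) or TTGCNNAA (C/EBP), read on both strands. The first is the downstream one of 2 listed starts of Sin3a, which encodes the scaffold of a histone deacetylase complex (chr9:57076126-57076425, plus strand), with 1 C/EBP match followed by 3 GC boxes. The next is the downstream one of 2 starts of Hk1, which encodes hexokinase 1 (chr10:62340372-62340671, minus strand), with 0 matches to any of the 10 motifs searched. The third is the most upstream start of Ipo5, which encodes an importin (chr14:120910944-120911243, plus strand), with 4 GC boxes. The last is the only listed start of Hdac4 (chr1:92180292-92180591, minus strand), with 5 GC boxes. The Ipo5 and Hdac4 starts are thus the genes' own first listed starts, and their spans reach further upstream.
Sin3a: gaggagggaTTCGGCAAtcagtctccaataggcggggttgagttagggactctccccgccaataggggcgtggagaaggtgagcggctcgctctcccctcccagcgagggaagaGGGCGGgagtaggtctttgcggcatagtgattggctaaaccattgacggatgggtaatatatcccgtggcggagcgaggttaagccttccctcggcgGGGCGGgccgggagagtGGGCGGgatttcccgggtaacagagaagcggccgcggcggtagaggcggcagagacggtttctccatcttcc
Hk1: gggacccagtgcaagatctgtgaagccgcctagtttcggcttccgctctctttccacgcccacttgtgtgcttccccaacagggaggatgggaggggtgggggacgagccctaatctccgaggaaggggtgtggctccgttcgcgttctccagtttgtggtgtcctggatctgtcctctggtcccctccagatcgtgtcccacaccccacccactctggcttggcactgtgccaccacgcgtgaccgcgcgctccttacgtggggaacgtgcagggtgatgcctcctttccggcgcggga
Ipo5: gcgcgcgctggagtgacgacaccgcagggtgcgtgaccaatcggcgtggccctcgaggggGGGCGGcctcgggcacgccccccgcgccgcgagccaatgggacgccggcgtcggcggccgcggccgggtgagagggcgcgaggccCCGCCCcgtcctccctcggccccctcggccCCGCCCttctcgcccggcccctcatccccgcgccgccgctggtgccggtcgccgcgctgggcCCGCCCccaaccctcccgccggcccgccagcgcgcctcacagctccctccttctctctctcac
Hdac4: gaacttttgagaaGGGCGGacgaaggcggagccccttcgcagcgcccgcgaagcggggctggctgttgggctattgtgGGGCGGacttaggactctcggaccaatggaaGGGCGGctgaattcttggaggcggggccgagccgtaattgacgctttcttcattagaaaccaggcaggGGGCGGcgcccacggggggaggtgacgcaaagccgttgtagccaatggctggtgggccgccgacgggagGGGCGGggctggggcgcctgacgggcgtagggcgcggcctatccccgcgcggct

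The peaks over these starts were tall in both libraries. The peak over the Sin3a start (chr9:57075467-57077412) had a pileup of 218 in Tle4cKO and 255 in WT. The Hk1 peak (chr10:62338963-62340982) had 238 in Tle4cKO, the highest Tle4cKO value of all 5678, and 252 in WT. Ipo5 (chr14:120910100-120912054) had 217 in Tle4cKO and 250 in WT. Hdac4 (chr1:92179384-92181256) had 205 in Tle4cKO and 238 in WT. All 4 were lower in Tle4cKO as raw values, as were nearly all peaks of the set.

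Strong gene-body peaks were almost never missing from the Tle4cKO list. Of 5683 WT peaks that met the other conditions, 5678 (99.9%, 95% Wilson interval 99.8% to 99.96%) overlapped a Tle4cKO peak, against 66.5% (66.1% to 66.9%) of 50938 weaker WT gene-body peaks. These and all later intervals cover counting error only, and overlap depends on height by its nature. Strong peaks elsewhere were as rarely missing, with 9656 of 9661 at gene ends and 4545 of 4549 outside genes overlapping a Tle4cKO peak. Of all WT peaks 72.9% did. The 5 strong gene-body peaks without a Tle4cKO partner had WT pileups of 99 to 109. They lay in Srgn, which encodes serglycin, and in Tcof1, Ehbp1l1, Txn1 and Cmip. They are named because they are few, after their values were seen. The Cmip peak lay 151 bp from the nearest Tle4cKO peak and the Srgn peak (chr10:62503754-62504018) 1285 bp.

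The 5678 peaks had a median pileup of 97 in Tle4cKO (quartiles 82 and 118, range 41 to 238) and of 128 in WT (quartiles 112 and 151, range 99 to 266). Because the WT pileup chose them, the WT values are a description, and so is every ratio to them. As raw values 12 peaks were higher in Tle4cKO, 1 was equal and the others were lower. The ratio of Tle4cKO to WT pileup had a median of 0.761, with 0.654 and 0.859 at the 10th and 90th percentiles. Across the peaks the heights of the libraries went together, with a Spearman correlation of 0.902 over 5678 peaks of these 2 libraries, which share genomic positions. In the Tle4cKO list, a peak of the same rank as the WT minimum had a pileup of 72, and 5192 peaks (91.4%) reached it.

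**Figure D1:**
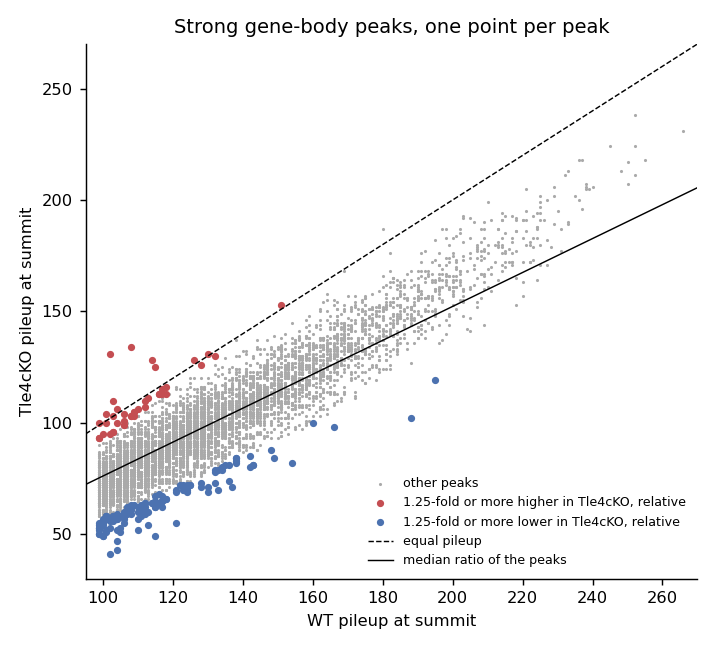
Summit pileup in Tle4cKO (vertical axis) against WT (horizontal axis), both as deposited pileup, with 1 point per peak for the 5678 strong gene-body peaks. Red points stood at least 25% above and blue points at 0.8 or less of shared peaks of like pileup, the dashed line marks equal values and the solid line the median ratio of 0.761; nearly all points lie below the dashed line.

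To read single peaks against others of the same height, the log2 ratio was taken relative to the median of all 93865 shared WT peaks in the same of 50 bins of summed pileup. This relative log2 ratio is 0 for a peak that behaved like others of its height, and positive values are higher in Tle4cKO. The strong gene-body peaks had a median of -0.014 and ranged from -0.82 to 0.75. A peak is called higher here if it stood at least 25% above such peaks and called lower if it stood at 0.8 of them or less. Called higher were 41 (0.722%), beside 0.618% of all 20226 shared WT peaks with a pileup of 99 or more and 13.8% of all shared WT peaks. Called lower were 127 (2.24%), beside 1.85% and 12.1%. The other strong shared peaks on chromosomes 1 to 19, taken alone, had 0.528% called higher (0.422% to 0.661%) and 1.54% called lower (1.35% to 1.76%), against 0.533% to 0.978% and 1.88% to 2.65% as the intervals of the gene-body shares. A set of gene-body peaks chosen on the summed pileup of both libraries held 94 higher and 70 lower, with a median of 0. The ratio is centred within bins of that same summed pileup, so a median near 0 is largely built into this choice. Whether choosing by WT height makes the excess of lower calls was not tested.

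The peaks just inside the threshold resembled those just outside. The 110 shared gene-body peaks with a WT pileup of 99 had a median of 72 (50 to 100) in Tle4cKO, and the 123 with a WT pileup of 100 had 72 (49 to 95). The 133 with a WT pileup of 98 had 71 (51 to 111) in Tle4cKO and the 124 with 97 had 70 (48 to 88).

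The peaks that stood highest in Tle4cKO relative to their height lay in genes of varied function. Arid5b, which encodes a DNA-binding protein of the ARID family, held the first. Its peak (chr10:68238619-68240130) had 131 in Tle4cKO and 102 in WT, a ratio of 1.28 (exact 95% interval 0.984 to 1.68) and a relative log2 ratio of 0.75. A peak within both Sla, which encodes a Src-like adaptor of blood cells, and Tg (chr15:66817299-66817578) had 134 in Tle4cKO and 108 in WT. A peak in Mob3a (chr10:80693606-80693892) had 128 in Tle4cKO and 114 in WT. In these 3 and in Arhgef10l, with 100 in Tle4cKO and 99 in WT, the Tle4cKO summit lay outside the WT peak, 424 to 2055 bp from the WT summit. The values of these 4 pairs therefore come from different points of the genome. Of all 5678 peaks 13 were of that kind, 4 of the 41 higher ones and 0 of the 127 lower ones. The Tle4cKO peak of the Arhgef10l pair was also the partner of a taller WT peak beside it (chr4:140580863-140582298). That pair had 100 in Tle4cKO and 160 in WT and was called lower, so a single Tle4cKO peak gave a call in each direction. In 15 of all 5678 pairs, 4 of the 41 higher ones among them, the highest WT peak over the Tle4cKO partner was another one.

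The next in order had both summits inside the WT peak. Arhgap26, which encodes a GTPase-activating protein for small GTPases, had a peak (chr18:39034677-39037021) of 110 in Tle4cKO and 103 in WT, a ratio of 1.07 (0.809 to 1.41) and a relative log2 ratio of 0.50. A peak in Sfi1 (chr11:3184184-3187200) had 125 in Tle4cKO and 115 in WT. Plbd1 had 104 in Tle4cKO and 101 in WT, Inpp5a 103 in both, Rbms1 106 in Tle4cKO and 104 in WT, and Fnip2 100 in Tle4cKO and 101 in WT. Each raw ratio in this group had an interval that included 1, and each interval lay above the ratio of peaks of like height. These peaks are thus raw near-equals in lists where most peaks were lower in Tle4cKO. They were picked for the highest relative ratios among 5678 peaks, so intervals above the ratio of like peaks are largely built into the choice.

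The peaks that stood lowest in Tle4cKO had less than the WT pileup by a wider margin. None of these 10 held a listed start, nor did any of the 10 highest for which starts were used, as was the case for most peaks of the set. The lowest lay in Tmem267 (chr13:119597504-119598970), with 41 in Tle4cKO and 102 in WT, a ratio of 0.402 (0.273 to 0.583) and a relative log2 ratio of -0.82. Enox1 (chr14:77510992-77512049) had 43 in Tle4cKO and 104 in WT. Lpar1, which encodes a receptor for lysophosphatidic acid, had 49 in Tle4cKO and 115 in WT (chr4:58469278-58470756). Capza2, which encodes a subunit of the actin capping protein, had 55 in Tle4cKO and 121 in WT. Mink1, which encodes a kinase, had 47 in Tle4cKO and 104 in WT.

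Mitf, which encodes a factor of the MiT/TFE family, had 52 in Tle4cKO and 110 in WT at chr6:97813868-97814661. There the partner was a narrow Tle4cKO peak of 241 bp, against 794 bp in WT, and a further Tle4cKO peak overlapped the same WT peak. Kcnq3, which encodes a potassium channel subunit, had 54 in Tle4cKO and 113 in WT. Slc25a25, which encodes a mitochondrial carrier, had 51 in Tle4cKO and 105 in WT. Asb2, which encodes an ubiquitin ligase subunit, and Cx3cl1, which encodes the ligand of Cx3cr1, each had 49 in Tle4cKO and 100 in WT. Over all 5678 peaks the interval of the ratio lay below that of peaks of like height in 31, above it in 12, and included it in 5635.

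Strong peaks at gene ends (9656 within 2500 bp of a gene end) and outside genes (4545) were shared in the same way and serve as a comparison. Median pileup was 97 in Tle4cKO and 128 in WT inside gene bodies, 123 in Tle4cKO and 155 in WT at gene ends, and 96 in Tle4cKO and 128 in WT outside genes. The median ratio was 0.761 inside gene bodies, 0.799 at gene ends and 0.757 outside genes. Called lower were 2.24% (1.88% to 2.65%) inside gene bodies, 0.911% (0.740% to 1.12%) at gene ends and 2.88% (2.43% to 3.41%) outside genes. Gene-body peaks were thus nearer to peaks outside genes than to those at gene ends in each of these values.

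Much of that gap went with height. Among peaks with a WT pileup of 99 to 119, the median ratio was 0.733 inside gene bodies, 0.739 at gene ends and 0.726 outside genes, and 3.94%, 3.01% and 4.90% were called lower. At 120 to 149 the ratios were 0.760, 0.772 and 0.755 in the same order, and 1.87%, 1.02% and 2.33% were lower. At 150 to 199 they were 0.790, 0.811 and 0.786, with 0.381%, 0.278% and 0.903% lower. At 200 or more they were 0.833, 0.847 and 0.830, and 0 of 199 gene-body peaks were lower. In all 4 height classes the median of gene-body peaks lay between those of the other locations.

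**Figure D2:**
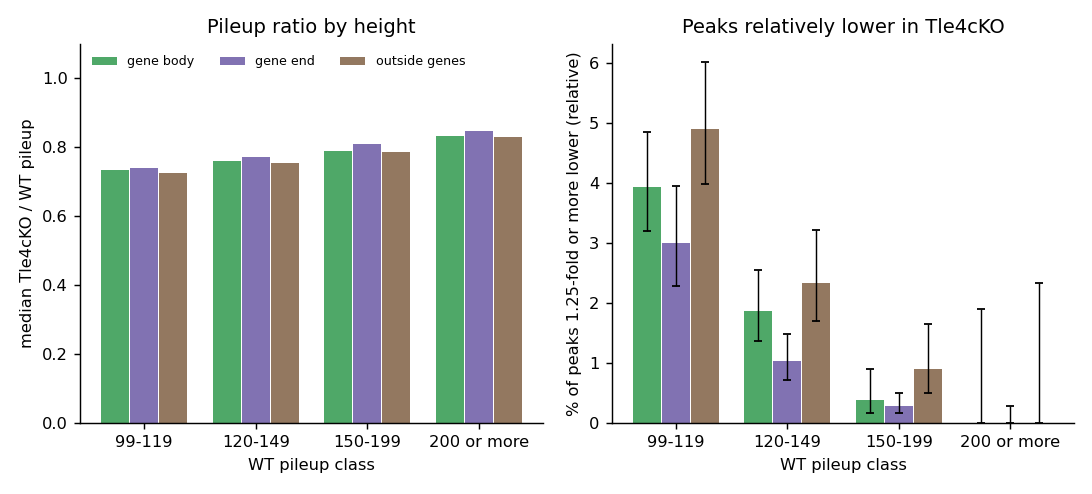
Median ratio of Tle4cKO to WT pileup and the percent of peaks called lower in Tle4cKO (vertical axes) by class of WT pileup (horizontal axis), for strong peaks inside gene bodies, at gene ends and outside genes; bars on the percents are 95% Wilson intervals. Within each height class the locations lie close together, and gene-body peaks lie between the others in the ratio.

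Width separated gene-body peaks from gene ends and not from peaks outside genes. The median width was 1124 bp in Tle4cKO and 1186.5 bp in WT inside gene bodies, 1406 bp in Tle4cKO and 1504 bp in WT at gene ends, and 1110 bp in Tle4cKO and 1186 bp in WT outside genes. Inside gene bodies 69.5% of peaks were narrower in Tle4cKO. In 280 gene-body peaks the WT peak overlapped 2 or more Tle4cKO peaks, of which the highest was used.

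Peaks that held a start of their host gene differed from the rest of the set. They had a median pileup of 117 in Tle4cKO and 148 in WT, against 96 in Tle4cKO and 126 in WT for the 4821 peaks without a listed start. Their median width was 1420 bp in Tle4cKO and 1527 bp in WT, against 1092 bp and 1149 bp in Tle4cKO and WT without a start. A start counted if it lay anywhere within the WT peak, so wider peaks had more room to hold a start. How far this sets the width gap was not tested. Called lower in Tle4cKO were 0.521% (0.177% to 1.52%) of peaks with a host start and 2.47% (2.07% to 2.95%) of those without. The share of peaks with a host start grew with WT pileup, through 4.81% at 99 to 119, 9.98% at 120 to 149, 17.0% at 150 to 199 and 34.4% at 200 or more. Within the lowest class 1.01% of peaks with a host start (1 of 99) and 4.20% of those without (81 of 1929) were lower. Within the next these were 1.02% (2 of 197) and 1.95% (34 of 1746), so the host-start shares rest on few peaks. Called higher were 2.02% with a host start and 1.71% without in the lowest class, and 0% and 0.172% in the next.

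The sequences of the starts inside gene bodies were of the CpG-rich kind. The 682 host-gene starts in strong gene-body peaks had a median of 19 CpG dinucleotides per 300 bases and 60.7% G and C. Starts in strong peaks at gene ends had 23 and 62.3%, starts in other WT peaks 15 and 59.3%, and starts with no WT peak 3 and 48.7%. A GC box (GGGCGG), as seen in the Sin3a, Ipo5 and Hdac4 windows, occurred in 58.4% (54.6% to 62.0%) of the starts in gene-body peaks. It occurred in 70.3% of those in strong gene-end peaks and 55.4% (53.6% to 57.2%) of those in other WT peaks. The share was 19.3% of those with no WT peak and 47.0% of all 20085 listed protein-coding starts on these chromosomes. TATAAA, the core of the TATA box, occurred in 5.28% (3.84% to 7.22%), 5.76%, 9.39%, 21.6% and 12.7% of the same sets.

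Motifs of factors active in blood cells differ in length and fixed letters, so their shares are set only against the same motif in other starts. An AP-1 match (TGANTCA) occurred in 7.77% (5.99% to 10.0%) of starts in gene-body peaks, 4.13% of those in strong gene-end peaks and 7.06% of all listed protein-coding starts. A C/EBP match (TTGCNNAA) occurred in 8.65%, 7.46% and 10.3%, and a PU.1 match (GAGGAAGT) in 3.67%, 3.31% and 3.18%. The ETS letters CCGGAAGT, which share GGAAGT with the PU.1 letters, occurred in 6.60% (4.97% to 8.72%), 10.4% and 5.28%. The E-box CACGTG, the letters read by MiT/TFE and Myc-type factors, occurred in 7.77%, 11.4% and 7.89%. A Runx match (TGTGGTT), the letters of a factor family that binds TLE proteins, occurred in 3.52%, 3.22% and 4.77%. Of starts with no WT peak, 10.0% held an AP-1, 13.7% a C/EBP and 6.40% a Runx match. In the same starts 2.89% held a PU.1 match, 0.648% the ETS letters and 4.43% the E-box. Of starts in other WT peaks, 7.03% held an AP-1, 9.29% a C/EBP and 4.98% a Runx match. In those, 3.53% held a PU.1 match, 3.07% the ETS letters and 7.59% the E-box. Each motif was read on both strands within the 300 bases, a match is not a bound site, and the peaks without a listed start are outside this count.

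**Figure D3:**
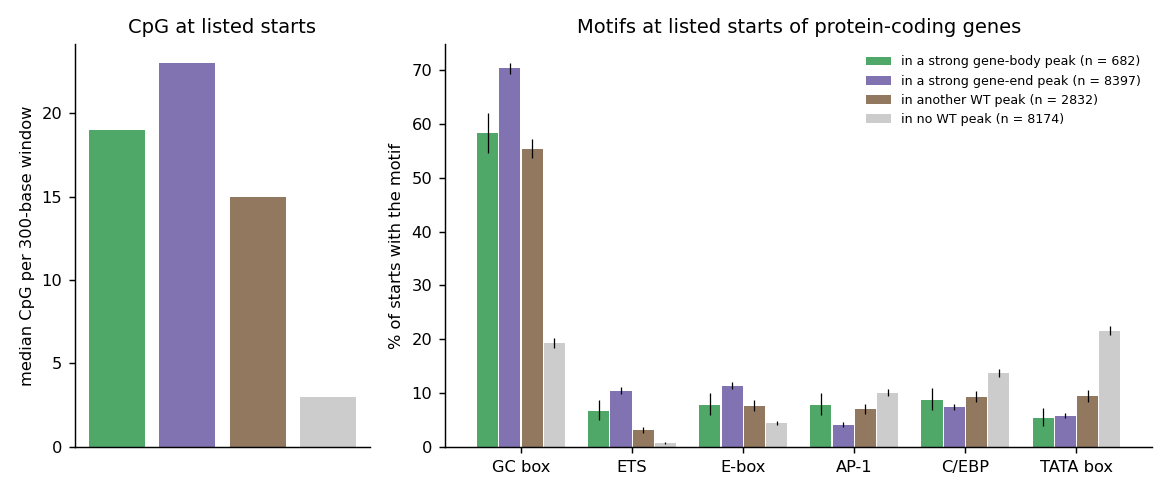
Median number of CpG dinucleotides in the 300-base windows at listed starts of protein-coding genes (left), and percent of these windows that hold each motif (right, with 95% Wilson intervals), by where the start lies. Starts in strong gene-body peaks lie between those in strong gene-end peaks and those in other WT peaks in CpG number, with 19 against 23 and 15.

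Strong gene-body peaks lay toward the 5′ side of their hosts. Of 4542 peaks in a single gene span with listed starts, 61.2% (59.8% to 62.6%) lay nearer the 5′ end than the 3′ end, against 52.3% (51.7% to 52.9%) of 26951 weaker shared gene-body peaks. Without the peaks that held a listed start the share was 59.3% (57.7% to 60.8%) of 3899. The last 20% of the gene held 10.9% of the strong and 15.9% of the weaker peaks. Neighbouring peaks of a gene share that gene, so these intervals treat them as more independent than they are.

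The peaks were spread over many host genes. Of the 2747 hosts, 1576 held 1 strong gene-body peak, 919 held 2 to 4 and 252 held 5 or more. Those 252 genes held 1718 of the peaks (30.3%), and 28 genes held 10 or more. Hosts were 17.1% of the 16096 protein-coding genes on these chromosomes that are long enough to hold such a peak. The share grew with gene length up to 200 kb: 5.60% of genes of 5 to 20 kb were hosts, 17.6% of 20 to 50 kb, 29.0% of 50 to 100 kb, 36.8% of 100 to 200 kb and 34.6% above 200 kb. Hosts had a median length of 58.3 kb and all genes long enough one of 25.9 kb.

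**Figure D4:**
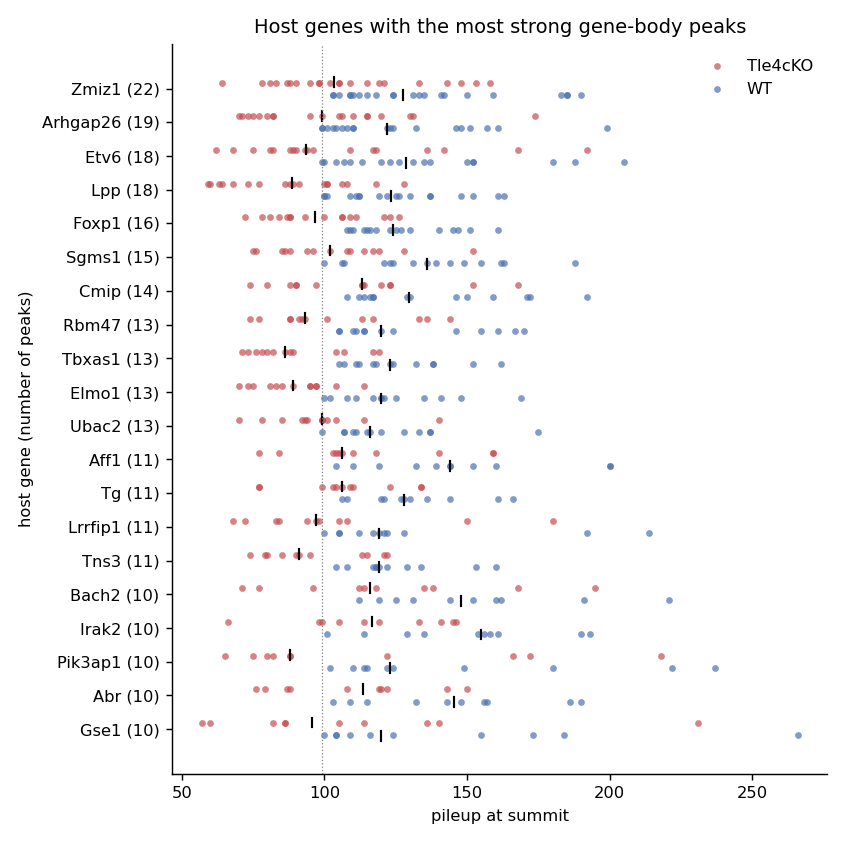
Summit pileup (horizontal axis) of every strong gene-body peak in each of the 20 host genes with the most such peaks (rows), with Tle4cKO in red above WT in blue; ticks are medians and the dotted line is the WT minimum of 99. In every gene the Tle4cKO median lies below the WT median.

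Zmiz1, which encodes a transcriptional coactivator related to PIAS proteins, held the most, 22 peaks over a gene of 209 kb (chr14:25457875-25666743). Their pileups ran from 64 to 158 in Tle4cKO, with a median of 103.5, and from 103 to 190 in WT, with a median of 127.5. Relative to peaks of like height 15 of the 22 were above 0, beside 45.4% of the whole set, with a median relative log2 ratio of 0.053. Arhgap26 followed with 19 peaks, at a median of 99 in Tle4cKO and 122 in WT. Etv6, which encodes an ETS-family repressor, held 18, at 93.5 in Tle4cKO and 128.5 in WT. Lpp, which encodes a LIM protein of cell adhesions, also held 18, at 88.5 in Tle4cKO and 123.5 in WT.

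The peaks of Lpp were low in Tle4cKO more often than those of Zmiz1. In Lpp 4 of 18 had a relative log2 ratio above 0, with a median of -0.13, and 2 were called lower, with 59 and 63 in Tle4cKO and 112 and 109 in WT. Foxp1, which encodes a forkhead repressor, held 16 peaks at a median of 96.5 in Tle4cKO and 124 in WT. Sgms1, which encodes sphingomyelin synthase 1, held 15, at 102 in Tle4cKO and 136 in WT. Cmip held 14, and Rbm47, Tbxas1, Elmo1 and Ubac2 held 13 each. Tbxas1 encodes thromboxane synthase, and its medians were 86 in Tle4cKO and 123 in WT, with 1 of 13 peaks called lower.

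Among the hosts with 10 or 11 peaks, Bach2, which encodes a BTB-type repressor, had medians of 116 in Tle4cKO and 148 in WT. Irak2, which encodes a kinase of the Toll-like receptor pathway, had 116.5 in Tle4cKO and 155 in WT. Pik3ap1, which encodes a PI3-kinase adaptor, had 88 in Tle4cKO and 123 in WT and reached 218 in Tle4cKO and 237 in WT. Gse1 held the peak with the highest WT pileup of all (chr8:120563352-120564869), with 231 in Tle4cKO and 266 in WT, and also a peak with 57 in Tle4cKO and 104 in WT. Tg encodes thyroglobulin, and 7 of its 11 peaks also lay in Sla, whose span overlaps that of Tg. Aff1, Lrrfip1, Tns3 and Abr completed the list of 20.

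Per length, Irak2 was the densest of these, with 17.7 strong peaks per 100 kb over 56.6 kb, against 10.5 in Zmiz1 and 2.45 in Arhgap26. In most of the genes with many peaks, these lay on both sides of 0. Over the 252 genes with 5 or more peaks, the median relative log2 ratio of a gene lay between -0.17 and 0.17, with quartiles of -0.052 and 0.029. Within a gene the ratios spanned a median range of 0.34. In 1 of the 252 genes every peak was above 0 and in 8 none was. Over all 2747 hosts, 2 peaks were called higher in 1 gene, Arhgap26, and called lower were 2 peaks each in 3 genes, Bicdl2, Enox1 and Lpp. Bicdl2 was chosen after its values were seen.

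Gene lists set out where the peaks lie among macrophage genes and genes of general pathways. Of the macrophage identity genes, 8 of 18 that are long enough were hosts (44.4%), with 16 peaks. Cx3cr1, the fractalkine receptor of resident gut macrophages, had 126 and 97 in Tle4cKO and 160 and 130 in WT. Csf1r, the receptor for the growth factor that keeps macrophages alive, had 105, 93 and 87 in Tle4cKO and 128, 110 and 131 in WT. Sirpa, the receptor for CD47, had 176, 81 and 90 in Tle4cKO and 200, 117 and 119 in WT. The list's median relative log2 ratio was -0.023, with 0 called higher and 0 called lower. Other hosts of the list were Itgam, Itgax, Mrc1 and Cd81 among others.

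Of the macrophage transcription factor genes, 19 of 25 were hosts (76.0%), with 77 peaks at a median relative log2 ratio of -0.025. Besides Etv6, the hosts with the most were Mef2c, Mitf and Tcf4 with 6 each. Mitf held peaks of 52, 96, 152, 88, 90 and 61 in Tle4cKO and of 110, 132, 180, 116, 132 and 106 in WT. The first and the last of these were the lowest relative to height, at -0.60 and -0.32, and the first alone among the 77 was called, as lower. Runx1, a Runx factor that can bind TLE proteins, held peaks of 88, 133, 138, 120 and 103 in Tle4cKO and of 109, 184, 186, 145 and 139 in WT. Spi1, which encodes PU.1, had 124, 72 and 137 in Tle4cKO and 150, 103 and 156 in WT; it was chosen after its values were seen.

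Signalling and cytoskeleton genes held the most. Of the immune receptor and PI3-kinase genes 20 of 21 were hosts (95.2%), with 87 peaks. Pik3ap1 and the Tec kinase gene Tec held 10 each, and Pik3r5, Ptpre and Ptprj held 7 each. A single peak of the 87 was called lower, in Ptpn6, which encodes the phosphatase SHP-1, with 84 in Tle4cKO and 149 in WT (chr6:124729629-124730713), beside another with 128 in Tle4cKO and 158 in WT. Ptpn6 was chosen after its values were seen. Of the small GTPase and cytoskeleton genes 24 of 30 were hosts (80.0%), with 109 peaks, 2 of them called higher, both in Arhgap26, and 0 called lower. Elmo1, which acts with Dock proteins to activate Rac in engulfment, held 13, Fmnl2 held 9, and Dock10 and Vav3 held 8 each.

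The other pathway lists stood between these and the background of 17.1%. Hosts were 11 of 20 NF-kappaB and Toll-like receptor genes (55%), 13 of 23 lipid and lysosome genes (56.5%), 7 of 11 cyclic AMP phosphodiesterase genes (63.6%) and 8 of 21 phagocytosis genes (38.1%). They were 8 of 20 IL-10, TGF-beta and STAT genes (40.0%), 9 of 21 Wnt and Notch genes (42.9%) and 10 of 21 corepressor genes (47.6%). The list genes differ in length, and length goes with the share of hosts up to 200 kb. The medians of gene length were 22.8 kb in the identity list and 135 kb in the small GTPase and cytoskeleton list.

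**Figure D5:**
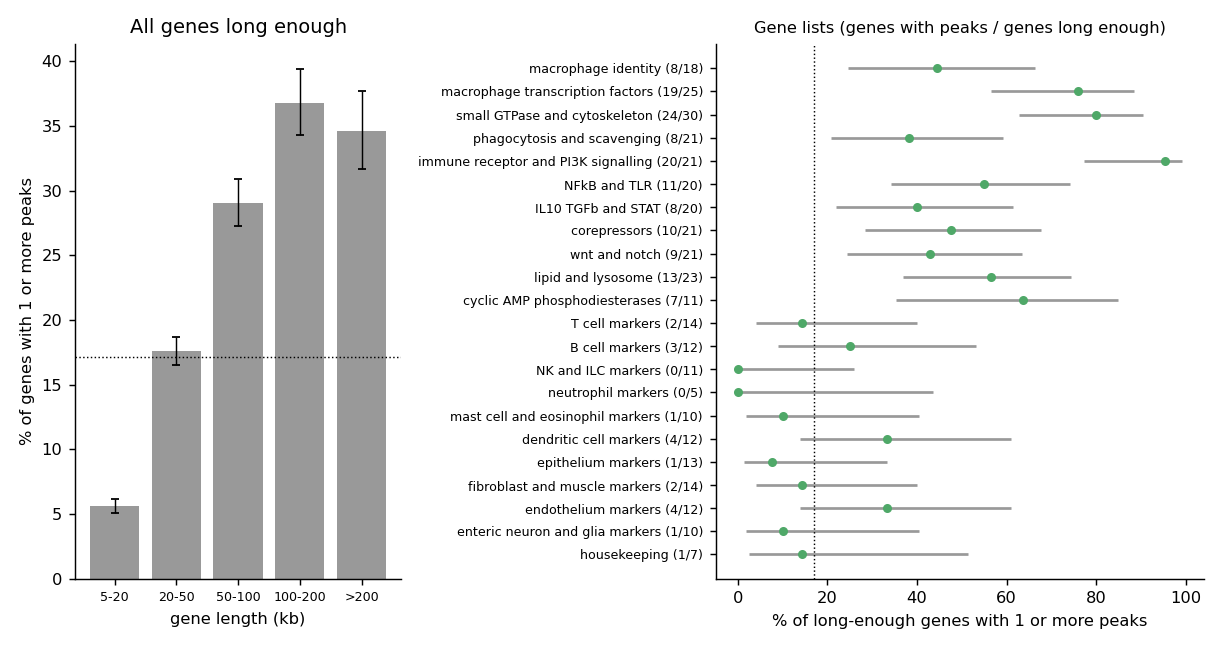
Percent of genes that host at least 1 strong gene-body peak, by gene length for all protein-coding genes long enough (left) and by gene list (right), with 95% Wilson intervals; the dotted lines mark the share over all such genes, 17.1%. The 11 lists of macrophage and pathway genes lie above the line, and lists of other cell types lie on both sides of it with intervals that include it.

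Over all strong gene-body peaks 0.722% were called higher and 2.24% lower, so lists of this size hold few calls or none. In Axl, which encodes a receptor for apoptotic cells, a peak called lower had 72 in Tle4cKO and 125 in WT, and the 2 others had 98 and 100 in Tle4cKO and 136 and 129 in WT. In Pde8a, a peak called lower had 50 in Tle4cKO and 99 in WT, and the other 84 in Tle4cKO and 108 in WT. In Smad3, a transducer of TGF-beta signals with 8 peaks, a single peak was called higher, with 103 in Tle4cKO and 109 in WT. The lipid and lysosome list had 15 of 34 peaks above 0 relative to height, beside 45.4% of all strong gene-body peaks, and 0 called. Tfeb, a regulator of lysosome genes, held the most of that list, 5 peaks with 100 to 139 in Tle4cKO and 139 to 177 in WT.

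Tle4 and other corepressor genes also held such peaks, which overlap a Tle4cKO peak by the rule. Tle4 held 1 (chr19:14585178-14586679), with 92 in Tle4cKO and 109 in WT and a relative log2 ratio of 0.19. The labels do not place the deleted part of the gene, so this peak is no check of the genotype. Tle3, its relative in the same family, had 105 and 96 in Tle4cKO and 123 and 137 in WT. Hdac4 had 73, 85 and 81 in Tle4cKO beside its start peak of 205, and 101, 103 and 104 in WT beside 238. Hdac7 held 3 peaks, Ctbp2 held 2, and Hdac5, Hdac9, Rcor1 and Sin3a held 1 each. The 20 peaks of the list had a median relative log2 ratio of -0.014, with 0 called higher and 0 called lower.

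Of marker genes of other cell types that are long enough, 0% to 33.3% per list held strong gene-body peaks. The background of 17.1% lies within the Wilson interval of each of these 10 lists. With 5 to 14 genes per list the intervals are wide, such as 13.8% to 60.9% for dendritic cell genes. They cannot show that a share is near the background. Hosts were 0 of 11 NK and innate lymphoid genes, 0 of 5 neutrophil genes, 1 of 13 epithelial genes (Hnf4a), 1 of 10 enteric neuron and glia genes (Ret) and 1 of 10 mast cell and eosinophil genes (Hdc). They were 2 of 14 T cell genes (Cd6 and Gata3), 2 of 14 fibroblast and muscle genes (Lama2 and Pdgfrb) and 3 of 12 B cell genes (Bcl11a, Ms4a1 and Ralgps2). They were 4 of 12 dendritic cell genes and 4 of 12 endothelial genes, Cdh5, Eng, Pecam1 and Vwf. Several of these genes are also expressed by macrophages or their progenitors, Pecam1 and Eng among them. Of 7 housekeeping genes long enough, 1 (Ywhaz) was a host.

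A pair of these markers held a peak called lower in Tle4cKO. Pdgfrb, which encodes a receptor of fibroblasts and pericytes, had 82 in Tle4cKO and 154 in WT (chr18:61074309-61075169; relative log2 ratio -0.52). Pdgfrb lies next to the macrophage gene Csf1r on its chromosome. Vwf, which encodes von Willebrand factor, had 171, 73, 99 and 57 in Tle4cKO and 214, 99, 128 and 110 in WT, of which the last was called lower (-0.47). The remaining 3 Vwf peaks lay between -0.10 and 0.02. The part of other cell types in these values was not tested.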

How the data were processed

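ATAC-seq peaks of colonic macrophages were analysed from 1 Tle4cKO and 1 WT library. The authors deposited 1 peak list per library with position, width, summit and pileup, a signal at the summit in whole numbers, per the file headers. The build mm10 and the tools MACS2 2.1.1, Bowtie2 2.2.5, HOMER 4.7.2, cutadapt 1.14 and featureCounts 1.5.0 stand in the submitters' processing notes, without roles. The sources used here do not give thresholds, read shifting, duplicates, depth or scaling, so a raw pileup ratio also holds any difference in depth.

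WT peaks were assigned to RefSeq gene spans (GRCm38.p6) and paired with the highest Tle4cKO peak that overlapped by 1 bp or more (Python 3.11.15, pandas 2.3.3, overlaps checked with bedtools 2.31.1). Ratios of pileups have exact Clopper-Pearson 95% intervals, approximate for a maximum over a peak, and shares have Wilson intervals (scipy 1.17.1). Relative ratios used 50 bins of summed pileup. A gene was long enough if a base lay more than 2500 bp from both ends. The calls of higher and lower peaks were first tried on simulated pileups in which each WT peak was its own partner. That trial held no shifted, split or shared partners, so it is no check of the calls for such pairs. Starts listed on chromosome 18 were not used.

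The peaks, gene lists and rules were chosen with earlier results of these data known. Named genes were the 20 hosts with the most peaks, the hosts of the 10 highest peaks and of the 10 highest and 10 lowest relative ratios, up to 5 genes per list with the most peaks, and every corepressor host. Predicted genes were skipped, and a few genes under this rule are left out. Alternatives varied the pileup minimum, the distance to gene ends, the overlap, the pairing, the bins and the host rule. Peak sequences beyond RefSeq start windows were not used here.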

Additional observations from a re-analysis of the deposited data

How the results depend on the processing

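No paired analysis was possible because each genotype had 1 library and the labels give no shared replicate numbers, and no library could be left out for the same reason. With a WT pileup minimum of 67 the set grew to 10709 peaks, with a median ratio of 0.74, 249 called higher and 513 called lower in Tle4cKO, 99.4% shared and a median Tle4cKO width of 1005 bp. With a minimum of 150 it held 1510 peaks in 1146 hosts, with a ratio of 0.796, a relative log2 ratio of -0.025, 1 higher and 5 lower, 100% shared and a width of 1299 bp. More than 10000 bp from gene ends there were 1658 hosts, a ratio of 0.757, a relative log2 ratio of -0.019, 24 higher, 99.97% shared and a width of 1140 bp. The shared percent was 98.2 with an overlap of 50% of the WT peak, 99.6 for pairs that were each other's highest partner and 99.7 with the Tle4cKO summit inside the WT peak. Chosen on summed pileup, the set had a ratio of 0.769, a relative log2 ratio of 0, 94 higher and 70 lower. This alternative and that on the summit position were added after the data were seen. No alternative turned a median to the other sign, and the cause of the other shifts was not tested. Bins of summed pileup, the distance of 1000 bp and the rules on the host span moved no count by over 1.5 times. For 5635 of 5678 single peaks the counting interval of the ratio included that of peaks of like height, so a difference was not detectable there. The others are no more than such intervals can miss by counting error, so no difference is read for them either.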

Other observations

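A few strong gene-body peaks overlapped microRNA hairpins listed by RefSeq; these were chosen after their values were seen. The peak with Mir1904 in Pde4d, a cyclic AMP phosphodiesterase gene, had 104 in Tle4cKO and 133 in WT. The peak with Mir3092 in Fndc3b had 126 in Tle4cKO and 147 in WT, and that with Mir7687 in Gse1 had 114 in Tle4cKO and 155 in WT. The peak with Mir6993 in Fads1, a fatty acid desaturase gene, had 70 in Tle4cKO and 101 in WT, and that with Mir6541 in Wdfy2 had 85 in Tle4cKO and 105 in WT.

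Strong gene-body peaks also varied little by chromosome. The median relative log2 ratio lay between -0.039 on chromosome 19, which carries Tle4, and 0.006 on chromosome 3. Starts of long noncoding RNA genes lay in 136 strong gene-body peaks.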
